A study of Arabidopsis thaliana with 12 samples.

Results

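The 10 genes described here are the NAC transcription factors best known for setting the pace of leaf senescence in *Arabidopsis*. They were taken by locus from the 23069 genes of an RNA-seq table, as a list of regulators with published roles. Their names are *ORE1* (*NAC092*), *ORS1* (*NAC059*), *NAP* (*NAC029*), *NAC016*, *ATAF1*, *NAC019*, *NAC055* and *NAC072* (*RD26*), which form a group of 8 positive regulators, and *JUB1* (*NAC042*) and *VNI2* (*NAC083*), the 2 negative regulators. All 10 had values in the table and passed the filter on low expression, so that each was tested.

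The libraries came from rosette leaves of 30-day-old plants, 3 of the *kaku4-2* mutant and 3 of the wild type (WT, Col-0). The *kaku4-2* mutant is a homozygous T-DNA insertion line in which *KAKU4*, a gene for a component of the plant nuclear lamina, is knocked down. It is a single allele, no complemented line was among the libraries, and rosette leaves contain several cell types. Expression was given as FPKM (fragments per kilobase of transcript, scaled to the mapped fragments of the library) and divided by transcript length, so levels are given per length. A trend with length nonetheless remained between libraries, so an order of levels across genes is approximate. Levels below are FPKM, and differences are log2 fold changes of *kaku4-2* over WT on log2(FPKM + 0.1), each with its standard error (SE).

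NAC proteins are plant-specific transcription factors that bind DNA through a conserved N-terminal domain. In ageing leaves they act as a cascade. Ethylene, abscisic acid, jasmonate and age raise *ORE1*, *NAP* and their relatives, whose products switch on genes for chlorophyll breakdown, nucleic acid degradation and abscisic acid synthesis, while JUB1 and VNI2 delay the process. *ORE1* is also held down in young leaves by the microRNA miR164, which cuts its transcript.

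The sequence that couples *ORE1* to miR164 sets it apart from the other 9 genes, so the microRNA is shown with the site in *ORE1* and, for comparison, the site in *NAC1*, a NAC gene of root development. In the microRNA the capitals mark the seed, bases 2 to 8. In the sites the capitals mark bases that cannot form a Watson-Crick pair with miR164a, G:U pairs included.
miR164a: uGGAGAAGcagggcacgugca
ORE1 site: CUcacgugAccugcuucuccG
NAC1 site: AgcacguAcccugcuucucca
These were read from the TAIR10.1 assembly of RefSeq. Mature miR164a lies at chr2:19520770-19520790 on the plus strand and miR164b-5p, encoded elsewhere, has the same 21 bases. The *ORE1* site lies at chr5:15858797-15858817 on the minus strand, in the coding sequence, and had 4 mismatches to miR164a, 1 of them a G:U pair. The best site in the other 9 genes had between 6 mismatches, in *ORS1*, and 9. Among the 119 annotated NAC genes 7 had a site with at most 4 mismatches, and among all 27558 protein-coding genes 13 had one. The site is a match of letters, not a measurement of cleavage, and the miR164 precursors have no values in the table.

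For 3 members the window from 250 bases before to 50 bases after the transcription start held a motif read by factors of abscisic acid, jasmonate or light signalling. The G-box CACGTG and the ABA-responsive element ACGTGNC were searched on both strands. The capitals mark the motif.
NAP, G-box: ttttaggtCACGTGtttagaggtgaa
NAC019, G-box: tctaactgacaCACGTGtcagaattcaaa
NAC072, ABA-responsive element: ccagttcatagACGTGGCagtatctaaatg
The windows are chr1:26121830-26121855 (plus strand), chr1:19698591-19698619 (minus strand) and chr4:13709252-13709281 (minus strand) of TAIR10.1. In *NAP* and *NAC019* the ABA-responsive element was also matched and overlapped the G-box. The G-box stood in 2 of the 10 windows and in 7.678% of 27443 promoters, the ABA-responsive element in 3 of the 10 and in 10.287%, and the MYC-type site CACATG in 0 of the 10 and in 12.914%.

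Before the regulators themselves, the genotype and the libraries were checked. *KAKU4* (AT4G31430) had 0.402, 0.433 and 0.313 FPKM in the *kaku4-2* replicates 1, 2 and 3, against 2.69, 3.61 and 2.51 FPKM in the WT replicates. It was downregulated by 2.64 on the log2 scale (log2 fold change −2.64, SE 0.41, limma with Benjamini-Hochberg adjusted p = 0.00933). Among the lists of cell type markers, mesophyll had the highest summed level in every library. Its marker *RBCS1A* lay between 6460.5 and 8348.5 FPKM in *kaku4-2* and between 7264.5 and 9454.6 FPKM in WT. The floral gene *AP3* did not exceed 0.416 FPKM in *kaku4-2* or 0.916 FPKM in WT, and *PI* did not exceed 0.806 and 1.82 FPKM. Among the cell type markers, the mesophyll gene *CA1* had 2357.2, 1937.5 and 1347.5 FPKM in the *kaku4-2* replicates and 2492.9, 3062.9 and 3567.4 FPKM in the WT replicates, lower in every mutant library but not called (log2 fold change −0.72, SE 0.39), and none of the other 3 mesophyll markers tested was called. Of 3 root markers tested *SHR*, also active in leaf veins, was downregulated by the cutoff (−0.78, SE 0.32). Summed over the lists, mesophyll markers gave between 12078.57 and 15120.1 FPKM in *kaku4-2* and between 13757.34 and 17994.4 FPKM in WT, and root markers between 9.27 and 9.96 FPKM in *kaku4-2* and between 12.2 and 16.1 FPKM in WT. Guard cell markers gave between 160.4 and 363.9 FPKM in *kaku4-2* and between 317.6 and 582.9 FPKM in WT, and none of the guard cell, phloem or floral markers tested was called. The part of these markers in the changes below was not tested. The library that departed most was *kaku4-2* replicate 3. The FPKM values of *kaku4-2* replicate 3 summed to 829810, where the other 5 libraries gave between 1245600 and 1767500, and its correlations with the others on log2(FPKM + 0.1) lay between 0.895 and 0.936. Its departure from *kaku4-2* replicates 1 and 2 followed transcript length, with a median of −1.06 on the log2 scale for the shortest transcripts (median length 550 bases) and 1.25 for the longest. WT replicate 3, with the highest sum, had a smaller length trend in the other direction. Its median deviation from the mean of each gene was 0.615 for the shortest transcripts and −0.433 for the longest. On that measure *kaku4-2* replicate 3 had −0.990 and 1.06, and WT replicate 1 had −0.037 and −0.149. For the 10 genes, values without *kaku4-2* replicate 3 are given where they move.

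**Figure D1:**
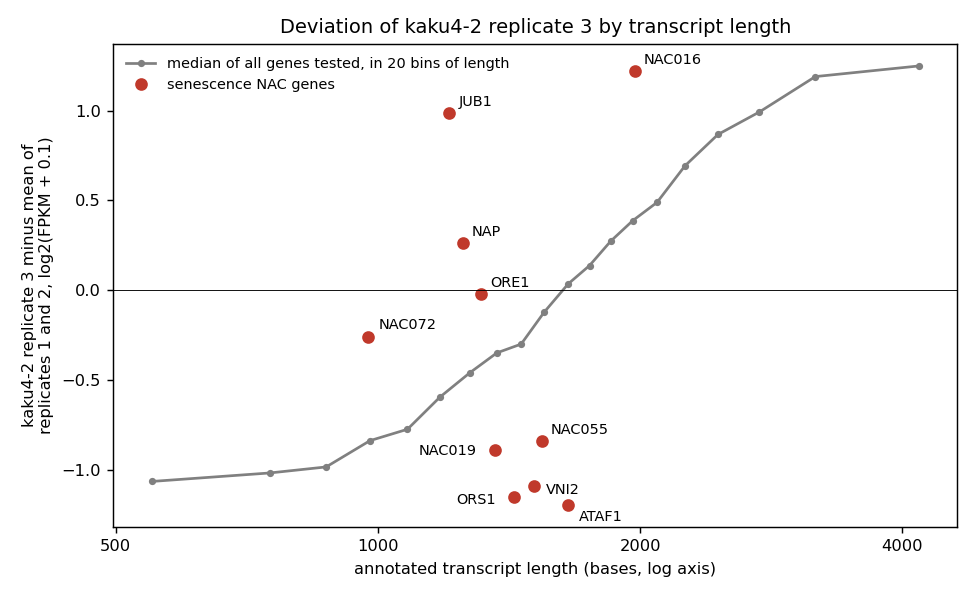
Difference on log2(FPKM + 0.1) between *kaku4-2* replicate 3 and the average of the other *kaku4-2* libraries, against the annotated transcript length on a log axis. A gene with several annotated transcripts is placed at their median length. The grey line joins the medians of all genes tested in 20 bins of length, and each red point is 1 senescence NAC gene. *ATAF1*, *ORS1*, *VNI2*, *NAC019* and *NAC055* lie 0.84 to 1.19 below 0 and under the line, while *JUB1* and *NAC016* lie 0.98 and 1.22 above 0.

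The cutoff of the study asks for medians at least 0.6 apart on the log2 scale and an unadjusted p of at most 0.05. The study names no test. The p is therefore that of the limma fit used here, and the calls are not the study's own. By this cutoff the *kaku4-2* mutant had 4 of the 10 genes upregulated and 1 downregulated. These were *ORE1*, *NAP*, *NAC055* and *JUB1* on the one side and *ATAF1* on the other. Across all 20638 genes tested the same cutoff called 5.02% up and 6.64% down. The members' median log2 fold change was 0.58, and that of all genes tested was −0.02. At a Benjamini-Hochberg adjusted p of 0.05 in limma, 1 member (*ORE1*) was upregulated and 0 were downregulated, where 0.242% and 0.237% of all genes were. An unadjusted p of at most 0.05 was found in 5 members and in 15% of all genes. In 4 members every *kaku4-2* library lay above every WT library and in 1 every *kaku4-2* library lay below, patterns found in 7.92% and 15% of all genes. In whole leaves a change in the share of a cell type and a change of RNA per cell cannot be told apart.

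**Figure D2:**
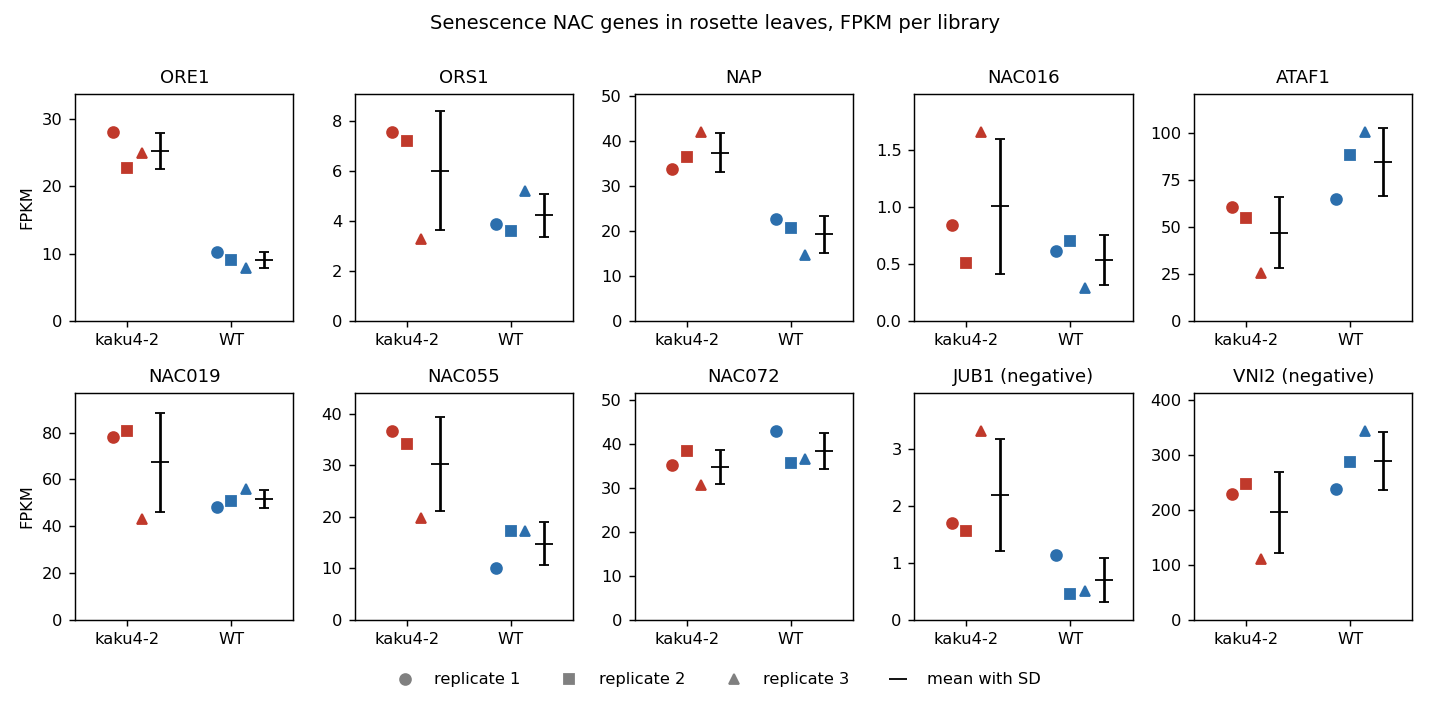
FPKM of the 10 senescence NAC genes in each library, *kaku4-2* on the left in red and WT on the right in blue of each panel, with each axis starting at 0. Symbols give the replicate number, and the bar beside each group is its mean with the SD over 3 libraries. *ORE1* and *NAP* show a clear gap between the genotypes, and in *NAC019*, *ORS1* and *VNI2* the triangle of *kaku4-2* replicate 3 falls below all other libraries.

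*ORE1* (AT5G39610, chr5:15858398-15859911, minus strand) is the central activator of age-dependent leaf senescence and acts on nucleases, chlorophyll catabolic genes and ethylene synthesis. It had 28.2, 22.8 and 24.9 FPKM in the *kaku4-2* replicates, against 10.2, 9.08 and 7.90 FPKM in the WT replicates. All mutant libraries were well above all WT libraries, and *kaku4-2* replicate 3 sat between the other mutant libraries. The means were 25.3 ± 2.72 FPKM in *kaku4-2* and 9.07 ± 1.16 FPKM in WT (SD, n = 3 each). *ORE1* was upregulated in the *kaku4-2* mutant with a log2 fold change of 1.47 (SE 0.27, limma with Benjamini-Hochberg adjusted p = 0.0325), and it passed the cutoff in all 17 alternative analyses. Its adjusted p ranged between 1.55e-05 and 0.187 over those analyses, and 11 of the 17 kept it at or under 0.05 (limma with Benjamini-Hochberg adjustment). It rose above 0.05 without WT replicate 1 (limma adjusted p = 0.126), WT replicate 2 (0.187), WT replicate 3 (0.179) or *kaku4-2* replicate 1 (0.0847), while the log2 fold change stayed between 1.38 and 1.56 with any 1 library left out. Its mean stood at the 76.5th percentile of the genes tested in *kaku4-2* and at the 58.0th in WT.

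*ORS1* (AT3G29035, chr3:11033665-11035308, plus strand) is a paralog of *ORE1* and also promotes senescence. It had 7.56, 7.17 and 3.27 FPKM in the *kaku4-2* replicates and 3.87, 3.58 and 5.19 FPKM in the WT replicates. *kaku4-2* replicates 1 and 2 were above all WT libraries, but replicate 3 was the lowest of the 6, so that the groups overlapped. The log2 fold change of 0.43 (SE 0.38) was not called (limma with Benjamini-Hochberg adjusted p = 0.535). Without *kaku4-2* replicate 3 it was 0.81 and passed the cutoff.

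*NAP* (AT1G69490, chr1:26122080-26123514, plus strand) drives senescence through abscisic acid, in part through the phosphatase gene *SAG113* and the abscisic aldehyde oxidase gene *AAO3*. It had 33.8, 36.4 and 42.1 FPKM in the *kaku4-2* replicates and 22.6, 20.5 and 14.6 FPKM in the WT replicates. All mutant libraries were above all WT libraries, with means of 37.4 ± 4.23 FPKM in *kaku4-2* and 19.2 ± 4.12 FPKM in WT (SD, n = 3 each). The log2 fold change was 0.97 (SE 0.28). *NAP* was upregulated by the cutoff in all 17 alternatives, but not by limma with Benjamini-Hochberg adjustment (adjusted p = 0.171).

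*NAC016* (AT1G34180, chr1:12448543-12451287, plus strand), whose loss keeps leaves green and whose product activates *NAP*, was barely expressed. It had 0.839, 0.510 and 1.66 FPKM in the *kaku4-2* replicates and 0.615, 0.701 and 0.283 FPKM in the WT replicates, an estimated 9.3 to 90.8 fragments per library. The groups overlapped, with *kaku4-2* replicate 2 below 2 of the 3 WT libraries. Its log2 fold change of 0.73 (SE 0.53) was not called in limma with Benjamini-Hochberg adjustment (adjusted p = 0.459), and it was 0.33 without *kaku4-2* replicate 3. Of its 31-base words 0.645% were shared with *NAC017*, its neighbour 117 bases away on the chromosome.

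*ATAF1* (AT1G01720, chr1:267993-269819, plus strand), a stress-inducible factor that activates *ORE1* and represses the chloroplast maintenance gene *GLK1*, went the other way. It had 60.6, 54.9 and 25.1 FPKM in the *kaku4-2* replicates, against 65.0, 88.4 and 100.7 FPKM in the WT replicates. All mutant libraries were below all WT libraries, but *kaku4-2* replicate 1 and WT replicate 1 were close. The means were 46.9 ± 19.0 FPKM in *kaku4-2* and 84.7 ± 18.1 FPKM in WT (SD, n = 3 each). *ATAF1* was downregulated by the cutoff with a log2 fold change of −0.93 (SE 0.35), without reaching significance after Benjamini-Hochberg adjustment in limma (adjusted p = 0.278). The change was −0.53 and still called without *kaku4-2* replicate 3, while the call was lost without WT replicate 2 (−0.89) or WT replicate 3 (−0.79), each with an unadjusted p above 0.05. It was also lost with quantile normalization (−0.61). On the opposite strand the annotation places the non-coding gene AT1G04043, which contained 19.3% of the 31-base words of *ATAF1* (reverse strand included), and 28 bases of AT1G01725, which had 58.6 FPKM in *kaku4-2* and 92.2 FPKM in WT. Whether the counting separated the strands is not given in the sources used here. It is therefore not known whether reads of *ATAF1* and of these genes were separated within the overlaps, of 344 and 28 bases.

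The closely related genes *NAC019*, *NAC055* and *NAC072* respond to jasmonate and abscisic acid, and their products shift salicylic acid metabolism and activate stress genes. Their values fell on different sides. *NAC055* (AT3G15500, chr3:5234457-5236196, plus strand) had 36.8, 34.2 and 19.8 FPKM in the *kaku4-2* replicates, against 9.996, 17.2 and 17.2 FPKM in the WT replicates. The lowest mutant library exceeded the highest WT library by a small margin. The log2 fold change was 1.02 (SE 0.33), and *NAC055* was upregulated by the cutoff (limma with Benjamini-Hochberg adjusted p = 0.228). Without WT replicate 1 this call was lost (0.76, with an unadjusted p above 0.05), and without *kaku4-2* replicate 3 the change was 1.2975 (limma with Benjamini-Hochberg adjusted p = 0.0397).

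*NAC019* (AT1G52890, chr1:19696923-19698482, minus strand) had 78.4, 80.8 and 42.9 FPKM in the *kaku4-2* replicates and 48.4, 50.8 and 56.0 FPKM in the WT replicates. As in *ORS1*, *kaku4-2* replicates 1 and 2 were the highest libraries and replicate 3 the lowest of all. The log2 fold change of 0.33 (SE 0.30) was not called in limma with Benjamini-Hochberg adjustment (adjusted p = 0.548), and it was 0.62 and called by the cutoff without *kaku4-2* replicate 3. *NAC072* (AT4G27410, chr4:13707192-13709170, minus strand) had 35.2, 38.3 and 30.7 FPKM in the *kaku4-2* replicates and 43.0, 35.7 and 36.4 FPKM in the WT replicates. Its groups overlapped, and the log2 fold change of −0.14 (SE 0.26) was not called (limma with Benjamini-Hochberg adjusted p = 0.773). The sign turned to 0.34 when the length trend of each library was removed and to 0.13 with quantile normalization. The length used for *NAC072*, 973 bases, is the median of its 3 annotated transcripts, and the effect of another choice was not tested.

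The negative regulators stood at opposite ends of the expression range. *JUB1* (AT2G43000, chr2:17880457-17882636, minus strand), which is induced by hydrogen peroxide and extends leaf life, was expressed at a low level. It had 1.71, 1.55 and 3.32 FPKM in the *kaku4-2* replicates, against 1.14, 0.456 and 0.499 FPKM in the WT replicates, an estimated 9.0 to 100.3 fragments per library. Every mutant library was above every WT library. With a log2 fold change of 1.54 (SE 0.47) it was upregulated by the cutoff in all 17 alternatives, but not after Benjamini-Hochberg adjustment in limma (adjusted p = 0.206), and the change was 1.21 without *kaku4-2* replicate 3. A stretch of 107 bases overlaps AT2G42990 on the other strand, which had 0.298 FPKM in *kaku4-2* and 0.634 FPKM in WT.

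*VNI2* (AT5G13180, chr5:4196256-4197940, plus strand), which delays senescence and activates cold- and dehydration-responsive genes, had the highest level of the 10 genes. It had 229.3, 247.3 and 111.7 FPKM in the *kaku4-2* replicates and 238.4, 286.7 and 344.4 FPKM in the WT replicates. Replicate 2 of *kaku4-2* was above WT replicate 1, so that the groups overlapped. The log2 fold change of −0.63 (SE 0.34) was not called in limma with Benjamini-Hochberg adjustment (adjusted p = 0.363), and it was −0.27 without *kaku4-2* replicate 3. Without *kaku4-2* replicate 2 it was −0.84 and passed the cutoff. The annotation places AT5G00390, a non-coding RNA, on the opposite strand over 306 of its bases.

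**Figure D3:**
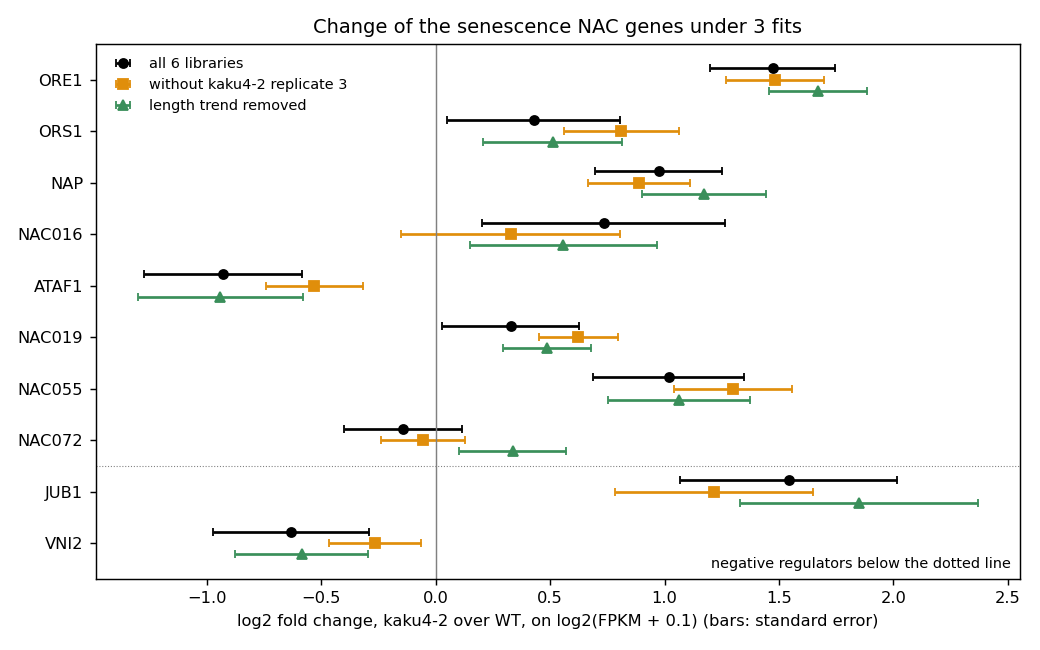
Log2 fold change of *kaku4-2* over WT on log2(FPKM + 0.1) for each of the 10 genes, with bars of 1 SE, from all 6 libraries (black), without *kaku4-2* replicate 3 (orange) and after removal of the length trend of each library (green). The 2 negative regulators are below the dotted line. *ORE1*, *NAP*, *NAC055* and *JUB1* lie above 0 in all 3 analyses and *ATAF1* below 0, while *NAC072* changes side.

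Without *kaku4-2* replicate 3 the cutoff called 6 members up and 1 down, against 4.65% and 6.66% of 20555 genes, and 2 members were upregulated at an adjusted p of 0.05 (limma with Benjamini-Hochberg adjustment), against 0.725% of genes, and 0 downregulated, against 0.715%. The departure of this library was larger than the median of genes of the same length in several members. For *ATAF1* it was −1.19, where genes of its length had a median of 0.04, and for *VNI2* it was −1.09, where the median was −0.12. For *ORE1* it was −0.02, with a median of −0.46. For *JUB1* it was 0.98, with a median of −0.59. The part of this library's length trend in each member's change was not tested beyond the fit with the trend removed.

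By mean FPKM, the order of the levels in *kaku4-2* was *VNI2* (196 ± 73.7), *NAC019* (67.4 ± 21.2), *ATAF1* (46.9 ± 19.0), *NAP* (37.4 ± 4.23), *NAC072* (34.7 ± 3.81), *NAC055* (30.2 ± 9.16), *ORE1* (25.3 ± 2.72), *ORS1* (6.001 ± 2.38), *JUB1* (2.19 ± 0.979) and *NAC016* (1.00 ± 0.592; SD, n = 3 libraries). In WT it was *VNI2* (289.8 ± 53.1), *ATAF1* (84.7 ± 18.1), *NAC019* (51.7 ± 3.90), *NAC072* (38.4 ± 4.01), *NAP* (19.2 ± 4.12), *NAC055* (14.8 ± 4.16), *ORE1* (9.07 ± 1.16), *ORS1* (4.21 ± 0.856), *JUB1* (0.699 ± 0.385) and *NAC016* (0.533 ± 0.221; SD, n = 3 libraries). Of the 9 pairs of neighbours in this order, 7 overlapped in the range of their libraries in *kaku4-2*, and 3 did in WT. In *kaku4-2* only *VNI2* against *NAC019* and *ORE1* against *ORS1* were apart. In WT the overlapping neighbours were *NAP* with *NAC055*, *NAC055* with *ORE1*, and *JUB1* with *NAC016*.

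Positive and negative regulators were compared as groups. Of the 8 positive regulators 3 were upregulated and 1 was downregulated by the cutoff, with a median log2 fold change of 0.58. Of the 2 negative regulators 1 was upregulated and 0 were downregulated, with a median of 0.46. Of all genes the cutoff called 5.02% up and 6.64% down. The mean log2(FPKM + 0.1) of the positive regulators was 4.41, 4.29 and 3.99 in the *kaku4-2* replicates and 3.72, 3.82 and 3.71 in the WT replicates. That of the negative regulators was 4.35, 4.34 and 4.29 in the *kaku4-2* replicates and 4.11, 3.66 and 3.84 in the WT replicates. Both means were thus higher in every mutant library than in any WT library. The positive mean minus the negative mean came to 0.07, −0.05 and −0.30 in the *kaku4-2* replicates and to −0.39, 0.16 and −0.14 in the WT replicates. The averages of −0.09 ± 0.185 in *kaku4-2* and −0.12 ± 0.272 in WT (SD, n = 3 each) differed by 0.03, less than the spread between replicates, and the sign of this difference turned under 4 of the alternatives. The negative mean joins an upregulated gene of low level with a highly expressed one that was not called, so it describes neither well.

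Regulators that act upstream of these genes were followed in a list of 15, of which 14 were tested, that also held *GLK1* and *GLK2*, which act with or downstream of ORE1 and ATAF1. By the cutoff *GLK1* and *GLK2* were downregulated, and of the other 12 genes 3 were upregulated and 0 downregulated, against 5.02% and 6.64% of all genes. The median log2 fold change of the 14 was 0.34. Over the 14, the counts were 1 up and 3 down with the length trend removed, against 1400 and 1132 of all 20638 genes. Without *kaku4-2* replicate 3 they were 2 up and 3 down, against 4.65% and 6.66% of genes. *GLK1*, a transcription factor that maintains chloroplasts and whose activity ORE1 antagonizes, had 55.5, 75.7 and 98.6 FPKM in the *kaku4-2* replicates, against 152.0, 268.2 and 199.1 FPKM in the WT replicates. All mutant libraries were lower, with a log2 fold change of −1.43 (SE 0.31, limma with Benjamini-Hochberg adjusted p = 0.0686), called in all 17 alternatives. Its partner *GLK2* had 259.9, 245.1 and 122.6 FPKM in the *kaku4-2* replicates and 302.6, 384.8 and 438.5 FPKM in the WT replicates (log2 fold change −0.90, SE 0.34). This call was lost without WT replicate 2 or 3, with quantile normalization and with the replicate block, and the change was −0.56 without *kaku4-2* replicate 3. Both are activators of the photosynthetic genes.

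Among the activators of *ORE1*, the clock gene *PRR9* was upregulated (log2 fold change 1.29, SE 0.41), with means of 11.02 ± 3.26 FPKM in *kaku4-2* and 4.80 ± 2.91 FPKM in WT (SD, n = 3 each) and some overlap of the groups. *EIL1*, an ethylene-signalling factor related to EIN3, was upregulated without overlap (0.82, SE 0.30), and this was lost without WT replicate 2 or 3 and with the length trend removed (0.48). *EIN3* itself, which falls outside the rule for named genes and was picked after its values were seen, was the third upregulated regulator (0.97, SE 0.43). This call rested on *kaku4-2* replicate 3. *EIN3* had 16.3, 13.0 and 44.8 FPKM in the *kaku4-2* replicates and 16.2, 9.20 and 8.30 FPKM in the WT replicates. The call was lost without *kaku4-2* replicate 3 (0.43), with the length trend removed (0.63) and in 5 further alternatives. The genotypes overlapped in *EIN3*. *MYC2*, another listed upstream regulator outside the rule and picked after its values were seen, was lower in every mutant library. It had 61.1, 69.05 and 74.0 FPKM in the *kaku4-2* replicates and 95.1, 108.4 and 100.7 FPKM in the WT replicates. Its log2 fold change was −0.58 (SE 0.26), and its medians fell short of the fold of the cutoff (−0.54).

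Of 19 genes reported as targets of the positive regulators, 2 were upregulated and 2 were downregulated by the cutoff, with a median log2 fold change of 0.28, against 5.02% and 6.64% of all genes. Without *kaku4-2* replicate 3 these counts were 4 up and 1 down, against 4.65% and 6.66% of genes. They were 4 and 3 with the length trend removed, against 1400 and 1132 of all 20638 genes. With array weights they were 5 and 3, against 2126 and 1981 of all 20638 genes. *NYC1*, the chlorophyll b reductase that starts chlorophyll b breakdown, had 28.2, 20.5 and 31.8 FPKM in the *kaku4-2* replicates, against 13.9, 7.56 and 6.87 FPKM in the WT replicates. All mutant libraries were higher (log2 fold change 1.55, SE 0.33, limma with Benjamini-Hochberg adjusted p = 0.0613). The ethylene synthesis gene *ACS2* was also upregulated without overlap (1.32, SE 0.46), at means of 1.35 ± 0.540 FPKM in *kaku4-2* and 0.459 ± 0.0671 FPKM in WT (SD, n = 3 each). *SAG113*, a phosphatase gene of abscisic acid signalling and a target of NAP, was downregulated, with 19.2, 17.3 and 10.4 FPKM in the *kaku4-2* replicates and 22.8, 31.7 and 35.1 FPKM in the WT replicates (−0.96, SE 0.31, and −0.69 without *kaku4-2* replicate 3). The calls of *NYC1* and *SAG113* were kept in all 17 alternatives, and that of *ACS2* in all 16 in which it was tested. *ICS1*, the salicylic acid synthesis gene repressed by the NAC019 group, was higher in every mutant library (log2 fold change 0.82, SE 0.31) but fell short of the fold of the cutoff. The list thus joins activated and repressed targets, so its counts and median have no common expected direction.

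*BFN1*, a senescence-associated nuclease, had a log2 fold change of 0.30 (SE 0.49), with 4.85, 5.16 and 1.48 FPKM in the *kaku4-2* replicates and 1.73, 2.58 and 4.37 FPKM in the WT replicates. *RNS3*, a ribonuclease gene, was the second downregulated target (−0.94, SE 0.40), with overlapping groups, and its call was lost in 7 of 17 alternatives, *kaku4-2* replicate 3 left out among them. The sugar transporter gene *SWEET15* (*SAG29*) had 8.38, 8.41 and 3.17 FPKM in the *kaku4-2* replicates and 3.08, 3.29 and 5.04 FPKM in the WT replicates, and was not called (0.70, SE 0.41). In *BFN1* and *SWEET15* replicates 1 and 2 of *kaku4-2* were above all WT libraries, while replicate 3 was not. These 3 targets were singled out after their values were seen.

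Of 7 targets of JUB1 and VNI2, 0 were upregulated and 2 were downregulated by the cutoff, against 5.02% and 6.64% of all genes. Their median log2 fold change was −0.39, with 2 positive and 5 negative values. The list joins genes activated and genes repressed by these factors, so its counts and median have no common expected direction. *COR15A*, a chloroplast protein of cold acclimation activated by VNI2, had 363.1, 400.4 and 168.0 FPKM in the *kaku4-2* replicates, against 591.6, 760.3 and 967.9 FPKM in the WT replicates. Its fold change of −1.38 on the log2 scale (SE 0.37, limma with Benjamini-Hochberg adjusted p = 0.147) was called in all 17 alternatives, and it was −0.99 without *kaku4-2* replicate 3. *GA3OX1*, the gibberellin synthesis gene repressed by JUB1, was lower in every mutant library (−0.83, SE 0.35), a call that was lost without WT replicate 2 or 3 or *kaku4-2* replicate 1 or 2 and with the replicate block. *DWF4*, a brassinosteroid synthesis gene repressed by JUB1, had a log2 fold change of −0.61 (SE 0.33) and *COR15B* one of −0.39 (SE 0.29), and neither was called.

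General markers of leaf senescence were measured beside the regulators. Of 10 markers 5 were upregulated by the cutoff and 0 downregulated, against 5.02% and 6.64% of all genes, with a median log2 fold change of 0.60. At an adjusted p of 0.05 (limma with Benjamini-Hochberg adjustment) 3 were upregulated, against 0.242% of all genes. Without *kaku4-2* replicate 3 the cutoff called 7 up, against 4.65% of genes. The beta-glucosidase gene *DIN2* had 7.01, 8.26 and 12.7 FPKM in the *kaku4-2* replicates, against 1.05, 0.458 and 1.17 FPKM in the WT replicates (log2 fold change 3.29, SE 0.41, limma with Benjamini-Hochberg adjusted p = 0.00262). *WRKY53*, an early senescence transcription factor, had 62.3, 60.5 and 46.8 FPKM in the *kaku4-2* replicates and 19.7, 12.5 and 14.5 FPKM in the WT replicates (1.87, SE 0.28, limma with Benjamini-Hochberg adjusted p = 0.0079). The cysteine protease gene *SAG12*, a marker of late senescence, had 21.1, 21.1 and 10.3 FPKM in the *kaku4-2* replicates and 4.03, 4.79 and 5.35 FPKM in the WT replicates (1.80, SE 0.34, limma with Benjamini-Hochberg adjusted p = 0.0339). In all 3 the genotypes did not overlap, and the cutoff called them in all 17 alternatives. By limma with Benjamini-Hochberg adjustment *DIN2* stayed at or under 0.05 in all 17, *WRKY53* in 14 and *SAG12* in 8, with an adjusted p of up to 0.201 for *SAG12*. The phosphate transporter gene *PHT3;2* was upregulated as well (0.91, SE 0.33), a call that was lost without WT replicate 2 or *kaku4-2* replicate 2. The fifth was *SAG13* (0.68, SE 0.27), picked after its values were seen and lost with the replicate block and without any 1 of the libraries other than *kaku4-2* replicate 3.

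**Figure D4:**
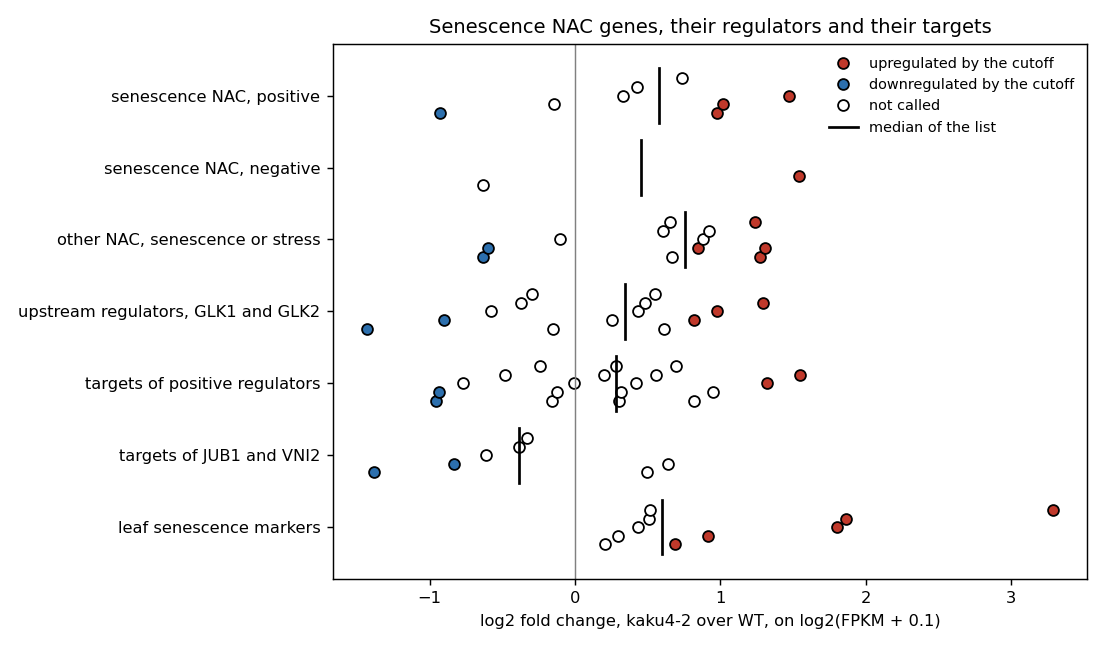
Log2 fold change of *kaku4-2* over WT on log2(FPKM + 0.1) for each gene of 7 lists, with genes upregulated by the cutoff in red, downregulated in blue and not called in white, and the median of each list as a vertical line. Medians lie between −0.39, for targets of JUB1 and VNI2, and 0.76, for other NAC genes of senescence or stress, and the marker *DIN2* lies farthest right at 3.29.

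Of 12 further NAC genes linked to senescence or stress 4 were upregulated and 2 downregulated by the cutoff, against 5.02% and 6.64% of all genes. Their median log2 fold change was 0.76. Without *kaku4-2* replicate 3 the counts were 6 and 2, against 4.65% and 6.66% of genes. *ATAF2*, a wound- and pathogen-responsive relative of *ATAF1*, had 45.7, 42.6 and 62.3 FPKM in the *kaku4-2* replicates, against 25.4, 17.0 and 18.4 FPKM in the WT replicates. It was upregulated in all 17 alternatives (log2 fold change 1.31, SE 0.28, limma with Benjamini-Hochberg adjusted p = 0.0661), the opposite direction to *ATAF1*. *NAC102*, another member of the ATAF group, was upregulated (0.84, SE 0.27), with means of 51.1 ± 8.05 FPKM in *kaku4-2* and 28.5 ± 5.003 FPKM in WT, and *NAC032* of the same group was downregulated (−0.63, SE 0.28), with means of 8.59 ± 0.552 FPKM in *kaku4-2* and 13.4 ± 1.26 FPKM in WT (SD, n = 3 each). The call of *NAC102* was lost without WT replicate 2, and that of *NAC032* with the length trend removed, with the replicate block and without any 1 of the libraries other than *kaku4-2* replicate 3. *NAC047*, an ethylene-responsive gene, was upregulated (1.27, SE 0.38), and so was *NAC053* (*NTL4*, 1.23, SE 0.44), which promotes reactive oxygen production in drought. The *NAC053* call was lost without WT replicate 3 (0.80).

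Over the whole NAC family, 119 genes were annotated and 92 were in the table. Outside the 10 senescence regulators 72 were tested, with a median log2 fold change of 0.14. By the cutoff 11 of them were upregulated and 5 downregulated, against 5.02% and 6.64% of all genes. At an adjusted p of 0.05 by limma with Benjamini-Hochberg adjustment none of the 72 was called (0), and 17 had an unadjusted p of at most 0.05, against 15% of all genes. Beyond the genes above, *NAC061* (1.25, SE 0.42) and *SOG1* (1.24, SE 0.51), the regulator of the DNA damage response, were among the most strongly upregulated. *NAC097* (−1.24, SE 0.42), *NAC041* (−0.94, SE 0.33) and *NAC082* (−0.60, SE 0.27), a gene of the ribosomal stress response, were downregulated. The *NAC061* call was lost without WT replicate 1, that of *SOG1* with array weights and without WT replicate 3 or *kaku4-2* replicate 3, that of *NAC097* without WT replicate 2, that of *NAC041* with quantile normalization (−0.75), and that of *NAC082* in 8 of 17 alternatives. Without *kaku4-2* replicate 3 the change of *NAC097* was −0.79 and that of *NAC041* −0.56, and both were still called. Of the other NAC genes with a miR164 site, from which *NAC1* and *NAC100* were picked after their values were seen, *NAC1* had 6.16 FPKM in *kaku4-2* and 7.70 FPKM in WT and was not called (−0.33), nor was *NAC100* (0.84), at 0.793 FPKM in *kaku4-2* and 0.354 FPKM in WT.

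The genes whose pattern over the 6 libraries was most like that of *ORE1* were *CHI* (AT2G43570, Pearson correlation 0.996), a chitinase gene, AT4G37530 (0.995) and *IGMT4* (0.995), an indole glucosinolate methyltransferase gene, among 16495 genes with a mean of at least 1 FPKM. A correlation of at least 0.98 was found for 23 genes. These correlations describe 6 libraries of 2 genotypes, so that a gene with a similar difference between genotypes scores high.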

How the data were processed

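Total RNA of rosette leaves was sequenced as paired-end reads, in 3 biological replicates of the *kaku4-2* mutant and 3 of WT. Alignment to TAIR10 was done by the authors with TopHat2 v2.0.9, and the deposited table holds the FPKM that Cufflinks gave for 23069 genes. The Cufflinks version, its annotation and its strand setting are not given in the sources used here. The ChIP-seq libraries were not analysed here. Genotype and replicate number came from the sample titles.

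FPKM are not counts, so no count model was used. In each library the low FPKM values were compared with whole multiples of 1 fragment, which gave divisors of between 19300000 and 32100000 fragments. Between 32.0% and 41.5% of these values lay within 0.03 of a whole number, where 6% would by chance, so fragment numbers are rough estimates that cover counting error only.

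The 20638 genes averaging 0.1 FPKM or more entered a limma 3.58.1 fit (R 4.3.3) of log2(FPKM + 0.1) with a trended prior variance, without covariates, and p-values were two-sided. Genes were called by the study's cutoff (medians at least 0.6 apart on the log2 scale, unadjusted p of at most 0.05) and, separately, at a Benjamini-Hochberg adjusted p of at most 0.05 over all genes tested. The study names no test, so the p of this fit was used in both. The pseudocount makes a fold change understate that of low genes. Simulated data with known changes were used to test the fit. Exact permutation of 3 against 3 libraries reaches a p of 0.1 at best, so it was not used.

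The 10 genes and all lists were chosen with earlier results of these data known, so no list was tested as a set. Named are the 10 genes, *KAKU4*, up to 4 genes of each list with the smallest p, up to 5 NAC genes in each direction with the largest change among those called at 0.5 FPKM or more on average, and the 3 genes most like *ORE1*. Further names are marked where they occur. Positions, lengths and sequences came from the TAIR10.1 assembly of RefSeq. As alternatives, the pseudocount was set to 1 or 0.01, the filter dropped or raised to 1 FPKM, libraries were scaled by the median ratio or quantile normalized, and the fit was run with an untrended prior variance, a replicate block, removal of each library's length trend in 20 bins, array weights, the fold from the mean FPKM, and each library left out in turn.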

Additional observations from a re-analysis of the deposited data

How the results depend on the processing

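The count of members upregulated by the cutoff lay between 3 and 6 over 17 alternatives. The count downregulated was 0 with quantile normalization and between 0 and 2 with 1 library left out. At an adjusted p of 0.05 by limma, members upregulated numbered 0 without a trend of the prior variance, 0 with the replicate block and 6 with array weights, and between 0 and 2 with 1 library left out, and 1 was downregulated with array weights. The array weight fit stopped before convergence. It gave *kaku4-2* replicates 1, 2 and 3 weights of 1.41, 7.09 and 0.107, and WT replicates 1, 2 and 3 weights of 0.495, 2.45 and 0.772. Its calls therefore rest mostly on replicate 2 of each genotype, above all on that of *kaku4-2*. Of 159 fits of single members other than those reported, 145 kept direction and call, 4 lost the call, 6 gained one and 4 turned the sign. *NAC072* turned to 0.13 (quantile normalization), 0.34 (length trend removed) and 0.036 (array weights), and *NAC016* to −0.029 (array weights). *NAC016* was not tested with the filter at 1 FPKM. The positive minus negative difference was 0.28 with a pseudocount of 1, −0.023 with 0.01, −0.025 with the length trend removed, and between −0.10 and 0.17 with 1 library left out. The causes of these changes were not tested.

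Over all genes the cutoff called 1037 up and 1370 down, of which upward calls were 43.1%. With the length trend removed it called 1400 up and 1132 down, 55.3% upward, and with array weights 2126 up and 1981 down. Leaving out WT replicate 2 gave 600 up and 892 down, WT replicate 3 gave 546 and 673, *kaku4-2* replicate 1 gave 1339 and 2428, and *kaku4-2* replicate 2 gave 1258 and 2660. At an adjusted p of 0.05 the 50 up and 49 down became 33 and 29 without a filter, 19 and 17 without a trend, 63 and 34 with quantile normalization, 182 and 103 with the length trend removed, and 2173 and 2881 with array weights. With 1 library left out they lay between 12 and 149 up and between 8 and 237 down. Outside the 10 members, NAC genes upregulated by the cutoff numbered 17 with the length trend removed, 18 with array weights and 6 without WT replicate 3. Downregulated ones numbered 3 with quantile normalization or the replicate block, where 1030 and 1017 of all genes were downregulated. They numbered 9 with array weights, and 1 and 2 without WT replicates 2 and 3.

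Same-numbered replicates did not deviate together (correlations of −0.159, −0.0251 and −0.408). These deviations include the length trend of each library, so they cannot show whether the replicates were paired. Pairing is not given in the sources used here. With the replicate block every cutoff call of a member was kept, and *ORE1* had an adjusted p of 0.111 in limma.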
